A study of Mus musculus with 20 samples.

Results

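Oxidative phosphorylation is carried out by 5 complexes of the inner mitochondrial membrane, and the nuclear genes for their subunits were followed here across 20 mouse livers. Members were the array probes whose gene name, as printed in the array files, begins with Nduf (complex I), Sdha to Sdhd (complex II), Uqcr (complex III), Cox4i, Cox5, Cox6, Cox7 or Cox8 (complex IV) or Atp5 (complex V). The rule used names alone and no measured value. It found 115 of 41174 probes, which stand for 82 of 27574 genes. The filter on dim probes kept 79 of the 82 genes, and each of the 79 was well above background on all 20 arrays. The other members, Cox4i2, Cox8b and Cox8c, are tissue-restricted subunits of complex IV and were at or near background.

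The livers came from 4 groups of 5 male mice aged 28 weeks, all on a mixed Sv129/C57Bl6J background. LXR alpha/beta double knockout mice were fed a Western diet, double knockout mice were fed normal chow, wild-type mice were fed a Western diet, and wild-type mice were fed normal chow, in each case for 7 weeks. The liver X receptors are nuclear receptors that sense oxysterols and control genes of cholesterol export, bile acid and fatty acid synthesis. The deletion is present in every cell of the animal, and the RNA came from a bulk fragment of the large lobe. Fewer cells of a type and less RNA per cell therefore cannot be told apart in any value below.

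Complex I takes electrons from NADH and complex II takes them from succinate, serving also as an enzyme of the citric acid cycle. Both hand the electrons through ubiquinone to complex III, which passes them by cytochrome c to complex IV, where oxygen is reduced to water. Complexes I, III and IV pump protons, and complex V uses the proton gradient to make ATP. Hepatocytes are rich in mitochondria, and fatty acid oxidation in the liver feeds electrons into this chain. Complexes I, III, IV and V also hold subunits encoded by mitochondrial DNA, which the rule does not cover.

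Many nuclear genes of the chain are known to be bound near their start by NRF1 and by ETS-family factors such as GABP, so the 250 bases before the annotated start of each member were searched on both strands. RefSeq promoters (GRCm38.p6) were found for 68 of the 82 members. The NRF1 motif (GCGCA and GCGC with 1 free base between them) stood in 13 of the 68 (19.1%), against 4.23% of 27025 genes with a promoter of the same length. The ETS motif CCGGAAG stood in 13 of the 68 (19.1%), against 7.83% of those genes. The CACGTG box stood in 6 members (8.82%), against 6.86% of those genes, and CCAAT stood in 29 members (42.6%), against 37.5%. A match is a run of letters and no measurement of binding. By complex, an NRF1 match stood in 6 of 33 genes of complex I, 2 of 3 of complex II, 0 of 4 of complex III, 1 of 13 of complex IV and 4 of 15 of complex V.

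The promoters of Sdha, Sdhb and Sdhd are shown because these subunits of one complex had unlike sizes of difference, and those of Cox7a1 and Cox6b2 because these isoforms varied between groups in patterns of their own. Each is printed on the strand of its gene, with NRF1 and ETS matches in capitals. Sdha (chr13:74350241-74350490, minus strand) holds 3 NRF1 matches, and Sdhd (chr9:50603850-50604099, minus strand) holds 1 NRF1 and 1 ETS match. Sdhb (chr4:140961021-140961270, plus strand), Cox7a1 (chr7:30183921-30184170, plus strand) and Cox6b2 (chr7:4753095-4753344, minus strand) hold neither.
Sdha: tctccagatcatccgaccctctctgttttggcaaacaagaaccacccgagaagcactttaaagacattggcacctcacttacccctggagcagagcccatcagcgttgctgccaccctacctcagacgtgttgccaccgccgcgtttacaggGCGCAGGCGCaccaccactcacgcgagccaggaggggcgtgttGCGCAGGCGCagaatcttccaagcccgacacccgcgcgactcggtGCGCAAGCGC
Sdhb: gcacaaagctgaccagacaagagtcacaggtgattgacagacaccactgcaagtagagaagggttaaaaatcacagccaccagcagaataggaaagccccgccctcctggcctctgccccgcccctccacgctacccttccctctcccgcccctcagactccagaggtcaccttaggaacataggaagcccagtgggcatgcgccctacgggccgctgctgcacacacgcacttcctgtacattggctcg
Sdhd: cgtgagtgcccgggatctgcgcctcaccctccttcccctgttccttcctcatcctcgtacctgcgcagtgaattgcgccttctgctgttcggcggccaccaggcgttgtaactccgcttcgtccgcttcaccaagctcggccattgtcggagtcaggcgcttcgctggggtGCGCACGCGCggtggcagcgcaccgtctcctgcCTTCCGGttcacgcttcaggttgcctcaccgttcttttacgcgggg
Cox7a1: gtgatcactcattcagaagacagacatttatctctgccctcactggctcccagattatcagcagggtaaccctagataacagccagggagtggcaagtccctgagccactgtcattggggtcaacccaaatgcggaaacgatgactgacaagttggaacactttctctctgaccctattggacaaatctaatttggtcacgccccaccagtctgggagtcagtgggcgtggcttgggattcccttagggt
Cox6b2: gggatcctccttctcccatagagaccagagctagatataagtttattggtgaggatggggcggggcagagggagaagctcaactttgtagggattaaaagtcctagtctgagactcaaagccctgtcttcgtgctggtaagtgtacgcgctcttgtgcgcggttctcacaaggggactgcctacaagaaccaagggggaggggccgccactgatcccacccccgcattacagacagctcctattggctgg

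Each liver was hybridised to 1 one-colour Agilent array. Values are log2 signals relative to the array's 75th percentile, so that 0 is the level exceeded by 25% of the spots, and they compare 1 probe across mice, not different probes. The 75th percentile ran from 170.3 to 435.1 intensity units over the arrays, and 53.6 to 67.1% of the probes were well above background. This percentile differed by group. In knockouts on Western diet it was 339.7 to 435.1, above every other array, of which the highest was a wild type on Western diet at 330.8. The part of this in the differences below was not tested. Correlations between mice of a group were 0.95 to 0.99. Probes for both deleted receptors checked the labels. Nr1h3 (LXR alpha) averaged -4.71 ± 0.73 and -4.52 ± 0.54 in knockouts on Western and normal diet, against 4.29 ± 0.32 and 4.53 ± 0.14 in wild types (SD, n = 5 each). Nr1h2 (LXR beta) averaged -4.73 ± 0.69 and -4.54 ± 0.73 in these knockouts, against 0.69 ± 0.10 and 0.85 ± 0.14 in these wild types. Groups were compared with limma in 1 fit of all 17541 to 17549 genes tested, and p-values were adjusted by the Benjamini-Hochberg method over those genes. A gene is said to have risen or fallen where its adjusted p was under 0.05.

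On the Western diet, subunits of all 5 complexes were lower in knockout than in wild-type livers. Of the 79 members, 67 fell, 1 rose and 11 did not pass the test, while 32.7% of all genes tested fell and 25% rose. The members' median difference was -0.61, a fold of 0.655, and the median over all genes was -0.16, so relative to that shift the members' median was -0.45. In 61 of 79 members every knockout mouse was below every wild-type mouse, against 23.1% of all genes, and in 1 every knockout was above every wild type, against 19.2%. Such counts, here and in the other comparisons, rest on the mice with a value, since missing values were left out. At least 2-fold lower were 9 of 79 members, a share near that of all genes, 11.4%. The largest such differences, by complex, were in Ndufaf1, Sdha, Uqcrc2 and Cox7c, and no member of complex V reached 2-fold on the brightest probe of its gene, from which each member was read.

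The size of this result depends on how arrays are scaled to each other, and nearly all members lie among the brightest genes. With quantile normalization, 41 members fell and 5 rose, with a median of -0.25, against 29.5% of all genes lower and 28% higher. Normexp background correction with quantile normalization gave 43 lower and 5 higher, with 26.6% of all genes lower and 27.1% higher. The authors' deposited matrix gave 45 lower and 5 higher, with 30.4% of all genes lower and 27% higher. Scaling to the array median gave 61 lower and 1 higher, with 33.7% of all genes lower and 20% higher. The median of each of the 5 complexes stayed below 0 under every one of these scalings. That is a statement of sign, and some members of complexes I, III and IV lay above 0 with quantile normalization. Within the 4 slides that held both genotypes on this diet, the members' median difference lay between -0.91 and -0.37.

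**Figure D1:**
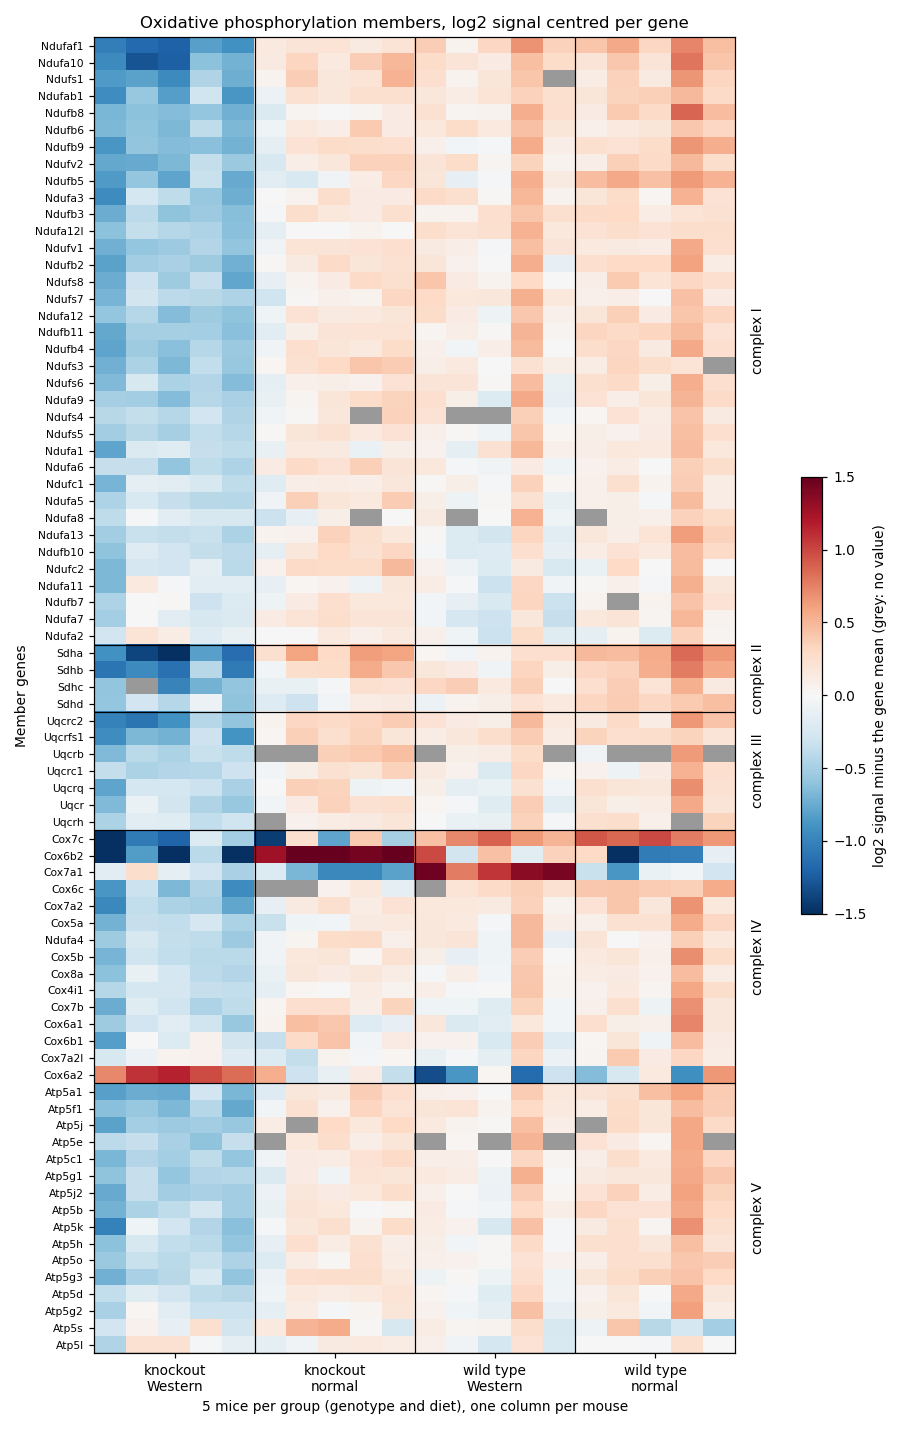
Heat map of all members but 1 (rows, grouped by complex) in 20 mice (columns: knockout on Western diet, knockout on normal diet, wild type on Western diet, wild type on normal diet). Colour is the log2 signal minus the gene's mean over mice, with colours ending at 1.5 below and above it and grey for a missing value. The 5 columns of knockouts on Western diet are low for most rows, with a median over members of -0.48 ± 0.14 (SD, n = 5).

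Complex I had the most members and 32 of 37 fell, with a median difference of -0.72. All 7 core subunits measured fell, as did 23 of 28 accessory subunits and both assembly factors. Ndufaf1, a chaperone that helps assemble the membrane arm, had log2 signals of 1.61, 1.47, 1.43, 1.83 and 1.73 in the knockouts on Western diet. The wild types on that diet had 3.01, 2.70, 2.95, 3.32 and 2.99. Every knockout was thus below every wild type, with a difference of -1.38 ± 0.11 (SE, limma adjusted p = 1.25e-08). Its probe lies at chr2:119347209-119347843 of mm8.

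Ndufa10, an accessory subunit of the membrane arm, had 2.74, 2.39, 2.47, 3.07 and 2.98 in the knockouts, against 3.97, 3.88, 3.81, 4.14 and 3.97 in the wild types, and fell by 1.23 ± 0.14 (limma adjusted p = 8.01e-07). Ndufs1, the large iron-sulfur subunit, fell by 0.98 ± 0.13 (limma adjusted p = 7.59e-06) with 1 wild-type value missing as an outlier spot. The mean over the probes of Ndufs1 gave 0.47, in the other direction, and did not pass (limma adjusted p = 0.626). Of the other core subunits, Ndufv2 fell by 0.80, Ndufv1 by 0.74, Ndufs7 and Ndufs8 by 0.72 each and Ndufs3 by 0.67. Ndufv1 binds the flavin, and Ndufv1, Ndufv2, Ndufs1, Ndufs7 and Ndufs8 hold iron-sulfur centres that lead electrons from NADH to ubiquinone. Among the accessory subunits, Ndufab1, the mitochondrial acyl carrier protein, fell by 0.91, Ndufb8 by 0.88 and Ndufb5 by 0.80. Ndufa12l, an assembly factor now named Ndufaf2, fell by 0.78.

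Not every subunit of complex I passed the test. Ndufa2, an accessory subunit of the matrix arm, had 5.35, 5.85, 5.75, 5.45 and 5.53 in the knockouts, against 5.71, 5.58, 5.32, 5.91 and 5.46 in the wild types. The ranges overlapped almost wholly, and the difference of -0.01 ± 0.13 did not pass (limma adjusted p = 0.949). Ndufa7, at -0.07 ± 0.12 (limma adjusted p = 0.624), and Ndufb7, at -0.12 ± 0.13 (limma adjusted p = 0.463), did not pass either, and nor did Ndufa11 and Ndufc2. With quantile normalization Ndufa2, Ndufa7 and Ndufb7 rose, by 0.36, 0.26 and 0.24 (limma adjusted p = 0.00519, 0.0229 and 0.0448). They also rose with normexp and quantile and with the deposited matrix.

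Complex II had the lowest median, -1.01 over 4 genes, and all 4 fell. Sdha, the flavin subunit that oxidises succinate, had log2 signals of 2.65, 2.19, 1.92, 2.75 and 2.42 in the knockouts on Western diet, against 3.59, 3.52, 3.62, 3.81 and 3.82 in the wild types. The highest knockout lay below the lowest wild type, and the difference was -1.29 ± 0.14, a fold of 0.41 (limma adjusted p = 4.37e-07). Its probe lies at chr13:74788700-74788759 of mm8, and another Sdha probe gave -1.19 ± 0.15. Sdhb, the iron-sulfur subunit, had 3.58, 3.72, 3.56, 4.26 and 3.62 in these knockouts, against 4.85, 4.80, 4.62, 5.00 and 4.77 in these wild types, and fell by 1.06 ± 0.14 (limma adjusted p = 4.47e-06). The ranges did not overlap, although the knockout at 4.26 stood apart from the other 4.

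The membrane anchors Sdhc and Sdhd hold the complex in the membrane and form the quinone site. Sdhc had 3.55, 3.15, 3.44 and 3.55 in 4 knockouts, with 1 value missing, against 4.46, 4.52, 4.29, 4.51 and 4.15 in the wild types, and fell by 0.96 ± 0.12 (limma adjusted p = 4.14e-06). Sdhd had 4.47, 4.77, 4.63, 4.97 and 4.45 in the knockouts, against 4.97, 5.11, 5.14, 5.27 and 5.20 in the wild types. The highest Sdhd knockout equalled the lowest wild type as printed, and the difference was -0.48 ± 0.11 (limma adjusted p = 0.00118). The sizes of Sdha and Sdhd were not tested against each other, and the Sdhd call was lost with quantile normalization.

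Complex III had a median of -0.47 and all 7 members fell. Uqcrc2, a core protein of its matrix side, had 4.88, 4.80, 4.99, 5.47 and 5.31 in the knockouts on Western diet, against 6.12, 6.02, 5.99, 6.39 and 6.04 in the wild types. The ranges did not overlap, and the difference was -1.02 ± 0.14 (limma adjusted p = 4.71e-06). Uqcrfs1, the Rieske iron-sulfur protein, had 4.30, 4.56, 4.52, 4.92 and 4.33 in the knockouts, against 5.34, 5.40, 5.49, 5.61 and 5.34 in the wild types, and fell by 0.91 ± 0.11 (limma adjusted p = 1.15e-06). Uqcrc1, the other core protein, fell by 0.47, a call lost with quantile normalization. Uqcrb, which helps form the quinone site, fell by 0.61 ± 0.15 (limma adjusted p = 0.00457) with only 3 wild-type values on this diet. The small subunits Uqcrq, Uqcr and Uqcrh fell by 0.43, 0.42 and 0.32, and with quantile normalization the differences were 0.03, 0.01 and 0.11. The Uqcrq probe was saturated in 1 of 5 knockouts and 3 of 5 wild types on this diet, which limits the size and sign of its difference.

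Complex IV had a median of -0.49, with 11 of 15 members lower and 1 higher. Of its 11 broadly expressed subunits 9 fell. Cox7c, a small subunit of the inner membrane, had the largest difference of any member on this diet. Its signals were 1.08, 2.35, 2.21, 3.21 and 2.91 in the knockouts, against 3.85, 4.13, 4.30, 4.05 and 3.92 in the wild types. The knockouts were all below the wild types but were more scattered, with an SD of 0.82 against 0.18, and the difference was -1.70 ± 0.34 (limma adjusted p = 0.000338). The Cox7c probe spans chr13:86518268-86519145 of mm8. Cox6c fell by 0.92 ± 0.12 (limma adjusted p = 1.3e-05, 4 wild-type values), Cox7a2 by 0.79, Ndufa4, once assigned to complex I, by 0.54 and Cox8a by 0.46. The calls of Ndufa4 and Cox8a were lost with quantile normalization.

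Cox4i1, a subunit through which ATP regulates the enzyme, had 6.67, 6.83, 6.85, 6.75 and 6.73 in the knockouts, against 7.20, 7.07, 7.10, 7.51 and 7.14 in the wild types. Its ranges did not overlap and it fell by 0.44 ± 0.11 (limma adjusted p = 0.00208), but with quantile normalization the difference was 0.01. Cox6b1, which faces cytochrome c, was at -0.26 ± 0.18 (limma adjusted p = 0.214) and Cox7a2l, a factor of respiratory supercomplexes, at -0.07 ± 0.11 (limma adjusted p = 0.601). Neither passed. The Cox6a1 probe was saturated on all 20 arrays, so no difference is given for it. Leaving out saturated spots left 78 members, of which 66 fell on this comparison.

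The tissue-restricted isoforms of complex IV did not all go the way of the other members. Cox7a1, the heart and skeletal muscle partner of Cox7a2, had 0.38, 0.80, 0.40, 0.25 and 0.06 in the knockouts on Western diet, against 2.00, 1.31, 1.61, 1.90 and 1.96 in the wild types. It was lower in every knockout and fell by 1.38 ± 0.19 (limma adjusted p = 5.71e-06). Cox6a2, the heart and skeletal muscle partner of Cox6a1, was the 1 member that rose, by 1.68 ± 0.28, a fold of 3.21 (limma adjusted p = 6.16e-05). Its signals were -2.43, -2.07, -2.00, -2.18 and -2.32 in the knockouts, against -4.49, -4.03, -3.13, -4.31 and -3.46 in the wild types, without overlap. Cox6b2, the testis partner of Cox6b1, had -2.34, -1.60, -2.26, -1.17 and -2.38 in the knockouts, against 0.23, -1.04, -0.32, -0.92 and -0.41 in the wild types, and fell by 1.45 ± 0.36 (limma adjusted p = 0.00221).

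These 3 isoforms had their probes at chr7:29894078-29894689 (Cox7a1), chr7:127996794-127996853 (Cox6a2) and chr7:4354973-4355032 (Cox6b2) of mm8. The skeletal muscle markers Ckm, Actn3, Myl1 and Mb were not well above background on any array, which leaves 4 of the 8 markers on that list. Of these, only Acta1, the skeletal actin, and Atp2a1, a calcium pump of muscle, passed the filter. Acta1 was not well above background in any wild type on Western diet and was at least 1.61-fold higher in the knockouts. Its means were -4.48 in knockouts and -6.51 in wild types (limma adjusted p = 0.00068). Atp2a1 fell by 1.03 ± 0.28 (limma adjusted p = 0.00383), so the markers that passed the filter went opposite ways. The summed linear level of the 8 markers, in units of the array's 75th percentile, was 0.254 to 0.331 in knockouts and 0.39 to 0.432 in wild types on that diet. The part of muscle RNA in the values of the isoforms was not tested. Without the 3 isoforms, 65 of 76 members fell and 0 rose. Cox8b was above background on 3 of 5 normal-diet knockouts, 1 of 5 Western-diet knockouts and 0 wild types, and Cox4i2 and Cox8c did not pass the filter either.

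Complex V had a median of -0.56 and 13 of 16 members fell, including all 5 subunits of the catalytic F1 part. Among these 5, Atp5e had only 2 wild-type values on this diet. Atp5a1, the alpha subunit of F1, had 6.20, 6.27, 6.26, 6.73 and 6.33 in the knockouts on Western diet, against 7.09, 7.08, 7.02, 7.40 and 7.18 in the wild types. The ranges did not overlap and the difference was -0.79 ± 0.12 (limma adjusted p = 2.83e-05). Atp5f1, subunit b of the side stalk and now named Atp5pb, had 5.55, 5.61, 5.50, 5.74 and 5.40 in the knockouts, against 6.35, 6.38, 6.23, 6.47 and 6.32 in the wild types, and fell by 0.79 ± 0.10 (limma adjusted p = 1.31e-06). Atp5j, another part of that stalk, fell by 0.74 ± 0.11 (limma adjusted p = 1.55e-05). The F1 subunits Atp5c1 (gamma) and Atp5b (beta) fell by 0.62 and 0.56, the Atp5b call being lost with quantile normalization. The Atp5b probe was saturated in 0 of 5 knockouts and 3 of 5 wild types on this diet, so the size of its difference is limited by the scanner. Dimmer probes gave larger differences for some genes and smaller ones for others. The other Atp5b probes fell by 1.15 ± 0.15 (limma adjusted p = 3.28e-06) and 1.43 ± 0.20 (limma adjusted p = 8.48e-06). The other Atp5a1 probe fell by 0.62 ± 0.09 (limma adjusted p = 1.89e-05), less than the brightest one. A second Atp5f1 probe fell by 1.22 ± 0.19 (limma adjusted p = 2.07e-05). The third Atp5f1 probe, near background, was at -0.23 ± 0.26 (limma adjusted p = 0.466).

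Of the other members of complex V, Atp5l, subunit g of the membrane part, had 4.51, 5.19, 5.19, 4.94 and 4.81 in the knockouts, against 5.03, 4.90, 4.70, 5.18 and 4.73 in the wild types. These ranges overlapped, with a difference of 0.02 ± 0.13 (limma adjusted p = 0.887). Atp5s, a coupling factor now named Dmac2l, was at -0.12 ± 0.18 (limma adjusted p = 0.58). Atp5g2, a gene for the c ring that turns with proton flow, was at -0.29 ± 0.14 (limma adjusted p = 0.0764), and passed without knockout mouse 2 on Western diet (-0.36, limma adjusted p = 0.0359) or wild-type mouse 4 on normal diet (-0.29, limma adjusted p = 0.0463).

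**Figure D2:**
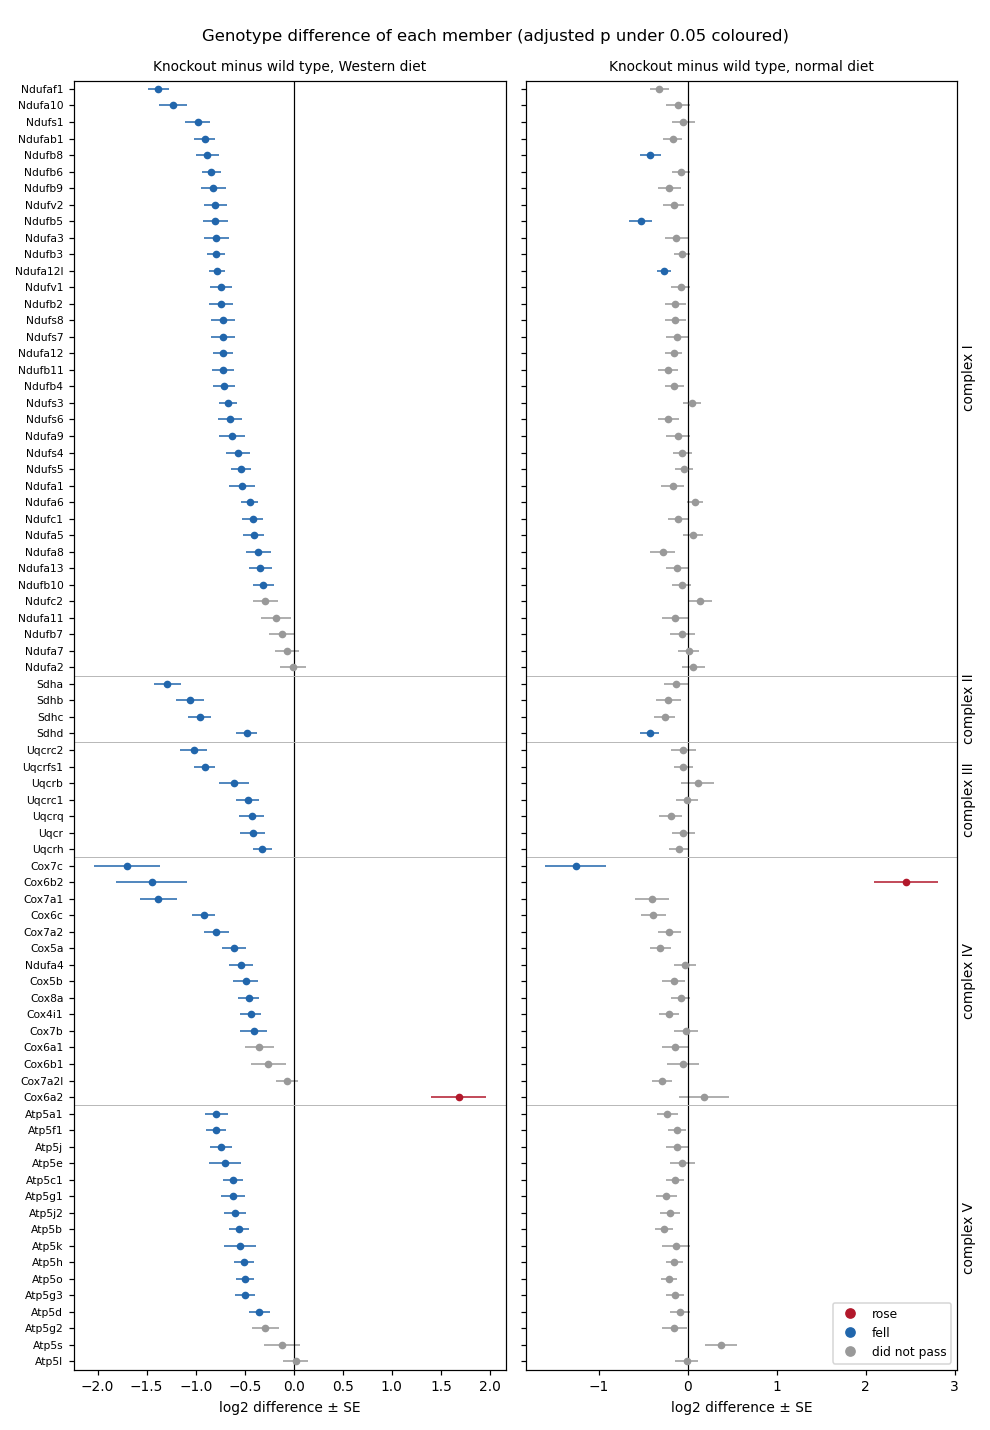
Difference between knockout and wild type for all members but 1 (rows, by complex), as log2 with its SE, on Western diet (left) and normal diet (right, on an axis of its own range). Colour marks an adjusted p under 0.05. Of all 79 members, 67 fell and 1 rose on Western diet, and 5 fell and 1 rose on normal diet, while the Cox6a1 row comes from a saturated probe.

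Set side by side, complex II stood lowest in knockouts on Western diet and the other complexes lay close together. The median of each complex over its members was taken in each mouse after centring every gene on its mean over mice. For complex II it averaged -0.82 ± 0.19 in knockouts on Western diet, 0.19 ± 0.19 in knockouts on normal diet, 0.13 ± 0.09 in wild types on Western diet and 0.46 ± 0.13 in wild types on normal diet (SD, n = 5 each). For complex I the same averages were -0.51 ± 0.13, 0.13 ± 0.11, 0.13 ± 0.17 and 0.25 ± 0.14. Complexes III, IV and V averaged -0.52 ± 0.14, -0.42 ± 0.18 and -0.45 ± 0.12 in knockouts on Western diet, and their averages in the other 3 groups lay between 0.06 and 0.27. On the scaling to the array's 75th percentile, the 5 knockouts on Western diet were below all 15 other mice in each complex. Over all genes the same average was -0.09 ± 0.05 in those knockouts. The 75th percentile itself was higher on these 5 arrays than on every other array. Medians per mouse were taken on this scaling only, so whether the separation holds on another was not tested. The members' median genotype difference on Western diet was -0.61 on this scaling. It was -0.25 with quantile normalization and -0.27 with the deposited matrix. The order of complex II, then complex I, then III to V held for the median genotype difference under every scaling run. The averages per mouse did not follow it past complex II, with complex I at -0.51 and complex III at -0.52. No test sets complexes against each other, since their members are not replicates.

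**Figure D3:**
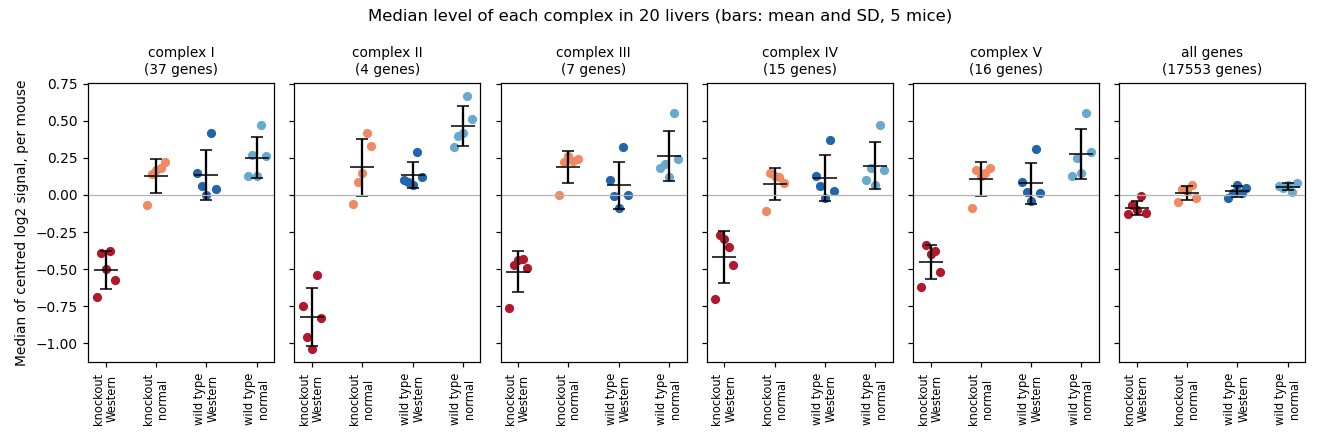
Median over the members of each complex, and over all genes (right), of the centred log2 signal in each of 20 mice, with points for mice and bars for mean and SD of 5 mice. On the scaling to the array's 75th percentile, knockouts on Western diet lie lowest in every complex, and lowest of all in complex II, between -1.04 and -0.54.

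Within complexes, classes of subunits differed in their medians, on the scaling to the 75th percentile. In complex I the median difference was -0.74 over 7 core subunits, -0.60 over 28 accessory ones and -1.08 over the 2 assembly factors. In complex II it was -1.17 over the 2 catalytic subunits and -0.72 over the 2 anchors, and in complex III -0.91 over 3 core and -0.43 over 4 accessory subunits. In complex V the F1 subunits had -0.62, the stalk and membrane subunits -0.55 and the c ring genes -0.50. These are descriptions of small sets and were not tested.

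**Figure D4:**
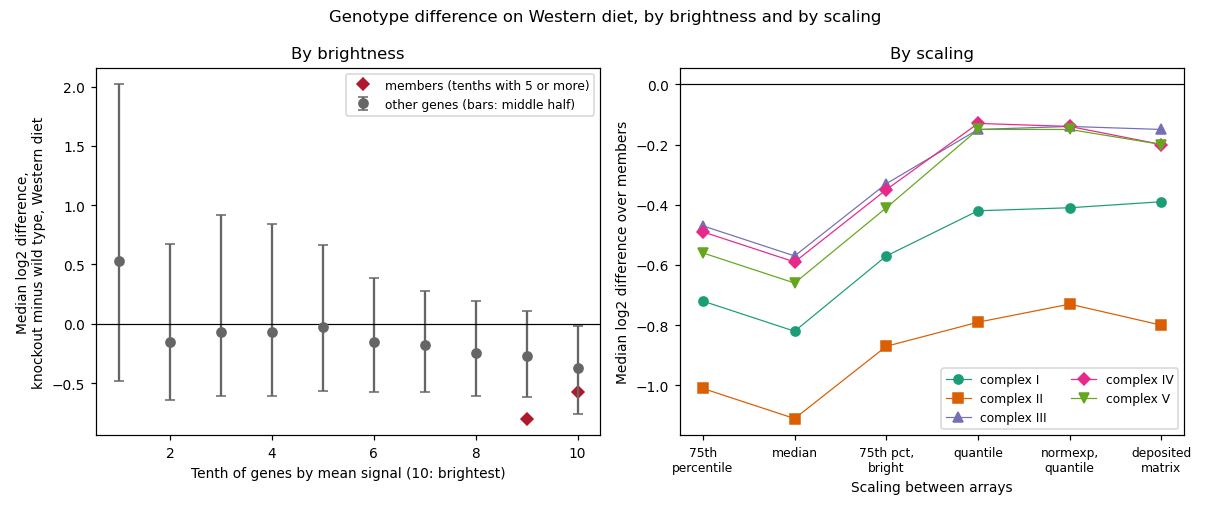
Left, median log2 difference between knockout and wild type on Western diet in 10 equal classes of genes by mean signal, for members and for all other genes (bars, from the lower to the upper quartile). Right, the median difference of each complex under the ways of scaling arrays: members in the brightest class had -0.58 against -0.37 for other genes there, and complex II stayed lowest under each scaling.

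Bright genes as a whole were lower in knockouts on Western diet, so members were also set beside genes of like brightness. Genes were ranked by mean signal into 10 classes of equal size. In the brightest class, the 64 members had a median difference of -0.58 and 89.1% fell, against -0.37 and 53.4% of the other genes. In the next class, 9 members had -0.80 and 88.9% fell, against -0.27 and 47.5%. The plot of the difference by brightness and by scaling shows both comparisons.

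On normal diet the genotypes differed in few members. Of 79 members, 5 fell and 1 rose, against 8.39% and 11.3% of all genes, so the share of members lower was near that of all genes. Without knockout mouse 1 or wild-type mouse 4 of this diet, 3 fell. The members' median difference was -0.13, with -0.06 over all genes, and lay between -0.29 and 0.04 within 4 slides. In 8 members every knockout was below every wild type, against 6.77% of all genes, and in 1 every knockout was above, against 8.14%. Cox7c again was lower in every knockout, with 1.99, 3.66, 2.62, 3.81 and 2.92, against 4.35, 4.28, 4.40, 4.18 and 4.07 in wild types on normal diet. The difference was -1.26 ± 0.34 (limma adjusted p = 0.014). Sdhd fell by 0.43 ± 0.11 (limma adjusted p = 0.00959), with 4.86, 4.75, 5.01, 5.17 and 5.19 in knockouts, against 5.38, 5.44, 5.36, 5.45 and 5.51 in wild types, without overlap. Ndufb5 fell by 0.53 ± 0.13 (limma adjusted p = 0.00827).

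Ndufb8 and Ndufa12l fell by 0.42 ± 0.12 (limma adjusted p = 0.0228) and 0.27 ± 0.08 (limma adjusted p = 0.0292). Ndufb8 did not pass without knockout mouse 1 (-0.37, limma adjusted p = 0.0697) or wild-type mouse 4 (-0.31, limma adjusted p = 0.0611). Ndufa12l did not pass without knockout mouse 1 (-0.24, limma adjusted p = 0.0833) or without wild-type mouse 2, 4 or 5, with adjusted p up to 0.0569. The 1 member that rose was Cox6b2, with 0.51, 1.44, 0.74, 0.68 and 1.24 in knockouts, against -0.46, -2.68, -1.81, -1.79 and -0.88 in wild types. Each knockout was above each wild type, by 2.45 ± 0.36, a fold of 5.46 (limma adjusted p = 0.000106). Sdha did not pass here, at -0.13 ± 0.14 (limma adjusted p = 0.543), and Cox6a2 was at 0.18 ± 0.28 (limma adjusted p = 0.698). Cox7a1 was at -0.40 ± 0.19 (limma adjusted p = 0.151), and passed without wild-type mouse 2 (-0.54, limma adjusted p = 0.0488).

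Within knockouts, the Western diet went with lower members as well. This comparison shares the knockouts on Western diet with the genotype comparison on that diet, so their results are not independent. Of 79 members, 68 fell and 2 rose, against 27.8% and 22.6% of all genes, and 67 of 78 fell when saturated spots were left out. The median difference between diets was -0.61, with -0.12 over all genes, and within 5 slides it lay between -0.78 and -0.50. In 62 members every mouse on Western diet was below every mouse on normal diet, against 18.1% of all genes. In 1 member every mouse on Western diet was above, against 16.3% of all genes. With quantile normalization 35 fell and 6 rose, with 23.8% of all genes lower and 27.2% higher. By complex, 34 of 37 members of complex I fell, 4 of 4 of complex II, 7 of 7 of complex III, 10 of 15 of complex IV and 13 of 16 of complex V, with medians of -0.66, -0.99, -0.59, -0.49 and -0.58.

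Sdha had the 5 levels given above on Western diet, from 1.92 to 2.75, against 3.80, 4.15, 3.86, 4.19 and 4.15 in knockouts on normal diet. The ranges did not overlap, and Sdha fell by 1.64 ± 0.14, a fold of 0.32 (limma adjusted p = 4.42e-08). Sdhb fell by 1.22 ± 0.14 (limma adjusted p = 1.24e-06), Sdhc by 0.76 ± 0.12 (limma adjusted p = 6.79e-05) and Sdhd by 0.33 ± 0.11 (limma adjusted p = 0.0175). Sdhd did not pass without Western-diet knockout mouse 5 (-0.28, limma adjusted p = 0.0525), and its difference was 0.02 with quantile normalization. Among the other complexes, the differences were -1.25 for Ndufa10, -1.21 for Ndufaf1, -1.08 for Uqcrc2, -0.81 for Atp5j and -0.80 for Atp5a1, and all 5 passed.

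Cox6b2 had the largest diet difference in knockouts, at -2.87 ± 0.36, a fold of 0.137 (limma adjusted p = 3.45e-06), the 5 mice on Western diet lying between -2.38 and -1.17 and the 5 on normal diet between 0.51 and 1.44. Cox6a2 rose by 0.98 ± 0.28 (limma adjusted p = 0.00785), with levels of -2.43 to -2.00 on Western diet, against -2.61, -3.47, -3.27, -3.03 and -3.51 on normal diet, without overlap. Cox7a1 rose by 0.56 ± 0.19 (limma adjusted p = 0.0192), but did not pass without Western-diet knockout mouse 2 (0.45, limma adjusted p = 0.0617) or normal-diet knockout mouse 3 (0.50, limma adjusted p = 0.0506). Cox7c, at -0.65 ± 0.34 (limma adjusted p = 0.124), did not pass, except without Western-diet knockout mouse 4 (-0.86, limma adjusted p = 0.0407) or normal-diet knockout mouse 1 (-0.90, limma adjusted p = 0.0281).

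In wild types the diet moved few members. Of 79 members, 1 fell and 1 rose, against 2.71% and 3.25% of all genes, and the median difference was -0.14, with -0.03 over all genes and -0.23 to -0.13 within 4 slides. With the replicate number as a block 3 fell, and with slide as a block 1 fell. The 2 diets did not overlap in 3 members lower on Western diet, against 4% of all genes, and in 1 higher, against 4.16%. Cox7a1 lay between 1.31 and 2.00 in wild types on Western diet, against 0.21, -0.33, 0.44, 0.50 and 0.25 in wild types on normal diet. The ranges did not overlap, and it rose by 1.54 ± 0.19, a fold of 2.91 (limma adjusted p = 5.47e-05). Sdha was at -0.49 ± 0.14 (limma adjusted p = 0.0486), close to the threshold. Its levels were 3.52 to 3.82 on Western diet, against 4.05, 4.03, 4.12, 4.41 and 4.21 on normal diet. The ranges of Sdha did not overlap, but leaving out any 1 of 15 mice, wild-type mouse 4 on normal diet among them (-0.43, limma adjusted p = 0.126), ended the call. Cox6b2 was at 1.03 ± 0.36 (limma adjusted p = 0.109), and passed without wild-type mouse 1 on normal diet (1.30, limma adjusted p = 0.0394).

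**Figure D5:**
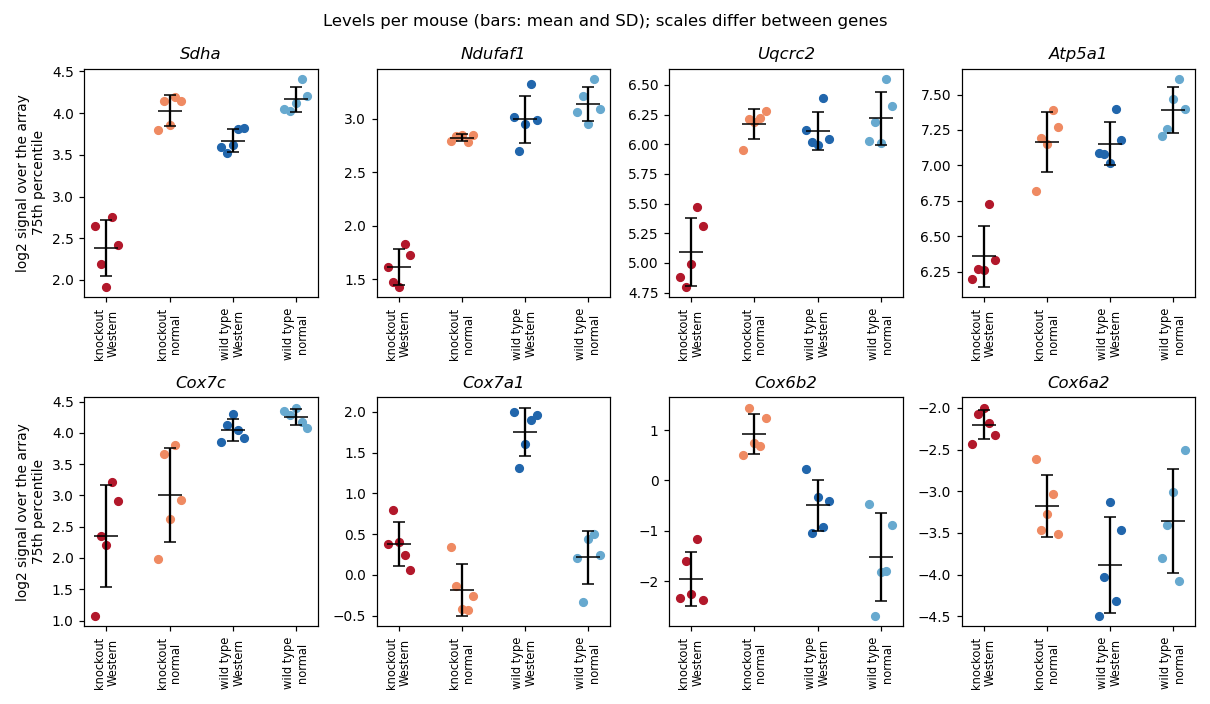
Log2 signal relative to the array's 75th percentile for 8 members in each of 20 mice, with points for mice, bars for mean and SD, and a scale of its own for each gene. Sdha, Ndufaf1, Uqcrc2 and Atp5a1 are lowest in knockouts on Western diet, Cox7c is low in knockouts on both diets, and the isoforms Cox7a1, Cox6b2 and Cox6a2 each have another pattern.

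The diet response was then compared between genotypes by the interaction term of the same fit, the diet difference in knockouts minus that in wild types. Of 79 members, 41 had a lower value and 1 a higher one past the threshold, against 14.7% and 12.9% of all genes. The median was -0.49, with -0.08 over all genes, and 15 members were lower when arrays were scaled to their median, with 9.7% of all genes lower. By complex the count was 24 of 37 in complex I, including all 7 core subunits, 3 of 4 in complex II, 4 of 7 in complex III, 5 of 15 in complex IV and 5 of 16 in complex V. The interaction was -1.15 ± 0.20 for Sdha (limma adjusted p = 0.000364), -0.84 for Sdhb and -0.70 for Sdhc. For Sdhd it was -0.05 ± 0.16 (limma adjusted p = 0.877), so that the diet response of this anchor was not shown to differ between genotypes.

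In complex I the interaction was -1.12 ± 0.20 for Ndufa10 (limma adjusted p = 0.00049), -1.06 ± 0.16 for Ndufaf1 (limma adjusted p = 9.64e-05) and -0.93 for Ndufs1. With the mean over its probes Ndufs1 was at 0.68, which did not pass (limma adjusted p = 0.716). The interaction was -0.97 for Uqcrc2 and -0.86 for Uqcrfs1 in complex III, and -0.67 for Atp5f1 in complex V. The isoforms had interactions of -3.90 ± 0.51 for Cox6b2 (limma adjusted p = 2.9e-05), -0.98 ± 0.27 for Cox7a1 (limma adjusted p = 0.0102) and 1.5 ± 0.40 for Cox6a2 (limma adjusted p = 0.00941). Cox6b2 was thus lower on Western diet in knockouts, while its diet difference in wild types was positive and did not pass.

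Other mitochondrial genes were read on the same arrays. Their counts on Western diet stand beside 32.7% of all genes lower in knockouts and 25% higher. On Western diet, 18 of 21 assembly factors of the complexes were lower in knockouts and 0 higher, with a median of -0.75. Tmem126b, a factor of complex I assembly, fell by 1.55 ± 0.15 (limma adjusted p = 8.93e-08), and Bcs1l, which inserts the Rieske protein into complex III, fell by 1.08 ± 0.09 (limma adjusted p = 2.37e-08). Of 15 genes of pyruvate dehydrogenase and the citric acid cycle, 11 fell and 0 rose, with a median of -0.67. Pdhb, a subunit of pyruvate dehydrogenase, fell by 1.30 and Idh3b, of NAD-linked isocitrate dehydrogenase, by 1.28. Of 78 mitochondrial ribosomal proteins 66 fell and 1 rose, with a median of -0.51, and Mrps12 was at -1.97.

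Partners of the chain went both ways, with 10 of 14 lower and 3 higher, beside 32.7% and 25% of all genes. Etfdh and Etfa, which bring electrons from fatty acid oxidation to ubiquinone, fell by 1.44 ± 0.17 (limma adjusted p = 2.63e-06) and 1.28 ± 0.12 (limma adjusted p = 2.32e-06). Ucp2, a carrier of the inner membrane abundant in macrophages, rose by 2.82 ± 0.24 (limma adjusted p = 2.02e-08), and Slc25a4, the ADP/ATP carrier of heart and muscle, rose by 2.17 ± 0.22 (limma adjusted p = 1.6e-07). Of 9 genes of ubiquinone synthesis 4 fell and 2 rose, not far from the shares of all genes. Coq8a was at -3.10 ± 0.20 (limma adjusted p = 6.1e-10). Of 14 regulators of mitochondrial biogenesis 6 fell and 2 rose, again not far from the shares of all genes. Among them were Ppargc1b at -1.19 ± 0.35 (limma adjusted p = 0.00692) and Ppargc1a at 0.81 ± 0.29 (limma adjusted p = 0.0238).

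Lists outside the mitochondrion gave both patterns. Of 75 cytosolic ribosomal proteins 20 rose and 9 fell, with a median of 0.15, beside 25% and 32.7% of all genes. Of 38 proteasome subunits 2 rose and 28 fell, with a median of -0.47. Lower values in knockouts on Western diet were therefore found outside oxidative phosphorylation as well, and no test sets these lists against the members.

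Cell type markers also differed between groups. The summed linear level of 11 hepatocyte markers, in units of the array's 75th percentile, was 589 to 709 in knockouts on Western diet, 1090 to 1410 in knockouts on normal diet, 821 to 1060 in wild types on Western diet and 1160 to 1480 in wild types on normal diet. On Western diet 9 of the 11 were lower in knockouts and 0 higher, beside 32.7% and 25% of all genes, with a median of -0.95. The same sum over 15 macrophage markers was 396 to 441, 34.6 to 105, 37.5 to 99.9 and 33 to 67.3 in these 4 groups, with 10 higher and 3 lower in knockouts on Western diet. Over 9 markers of stellate cells and fibroblasts it was 87 to 187 in knockouts on Western diet and 9.44 to 24.4 in the other groups, and over 5 bile duct markers 147 to 207 in those knockouts and 12.6 to 146 in the other groups. The part of these cell types in the members' differences was not tested. The members with an NRF1 match had a median difference of -0.51 on Western diet (13 genes), and those with a promoter and no match had -0.62 (54 genes).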

How the data were processed

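Liver RNA of 20 mice in 4 groups of 5 was labelled with Cy3 and hybridised to one-colour Agilent mouse arrays on 6 slides. Per the file headers, the authors' scans were read with Agilent Feature Extraction 9.5.3.1 (9.5 in the submitters' processing notes, which also name limma), giving deposited processed signal intensity per spot, background corrected, and probe positions on mm8. The deposited matrix holds the authors' log2 values, with scale and centring not given in the sources used here. It served as an alternative.

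Here, log2 of the intensity minus the array's 75th percentile over 43379 non-control spots was used. Outlier spots (105 to 270 an array) were set missing. A gene was read from its brightest probe by mean and was kept if 1 group or more had 4 of its 5 arrays clear of background for it. In limma 3.58.1 (R 4.3.3) lmFit and eBayes fitted 4 group means to all arrays (16 residual and 2.23 prior degrees of freedom), two-sided, with Benjamini-Hochberg adjustment over all genes tested and a threshold of 0.05. The fit was tested on simulated data. Alternatives were other scalings, filters, probe rules, blocks for slide and replicate number, array weights, and leaving out each mouse.

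The replicate numbers of the labels were checked as pairs. The lowest correlation of same-numbered deviations was -0.35 and -0.38 between genotypes on Western and normal diet, and -0.04 and 0.03 between diets in knockouts and wild types (medians 0.20 and 0.37), so in no comparison did every pair exceed 0.1. Same-numbered mice of a genotype lay on 1 slide in 5 of 5 knockout and 4 of 5 wild-type pairs, so the diet comparisons were also fitted with slide as a block. Nothing in the labels says that arrays of a group share an animal. The number of arrays limits the precision. Gene symbols are those of the array design, updated through RefSeq for the promoters.

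Members and gene lists were chosen with earlier results of these data known. Any member could be named, but 1 is counted and not reported by itself here. Values per mouse are given for up to 3 genes with the largest and up to 3 with the smallest difference on Western diet per complex, the isoform pairs and members called in the interaction or against their complex, and up to 4 genes of each other list may be named. Figures were drawn with matplotlib 3.10.9.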

Additional observations from a re-analysis of the deposited data

Results flagged for a closer look

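Of 208 sets of 4 or 5 mice (a named member or a complex median in 1 group, leaving out Cox6a1, saturated on all arrays), 28 held a mouse whose gap to its nearest neighbour was large against the range of the set. Chance alone gives such a mouse in about 1 set in 20. Most were knockout mouse 1 on normal diet, low, or wild-type mouse 4 on either diet, high. All values are log2.

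Knockout mouse 1 on normal diet was low in Ndufab1 at 4.42 (the other 4 from 4.67 to 4.75), Ndufv1 at 5.54 (5.79 to 5.85), Uqcrc2 at 5.95 (6.19 to 6.28) and Cox8a at 6.20 (6.41 to 6.47). It was also low in the centred medians of complex I at -0.07, complex III at 0.00, complex IV at -0.11, complex V at -0.09 and all members at -0.07. The other 4 knockouts on that diet were at 0.14 to 0.20 for all members.

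Wild-type mouse 4 on normal diet was high in Ndufs7 at 5.57, Uqcrq at 8.2, Uqcr at 6.97, Cox8a at 6.77, Atp5b at 8.09, Atp5g2 at 6.02 and Atp5l at 5.20, and in the centred medians of complex III at 0.55 and complex IV at 0.47. The Uqcrq and Atp5b probes were saturated in 3 and 2 of the 5 mice of this group. The array of this mouse had the lowest 75th percentile, 170.3, and the part of this in its values was not tested. Wild-type mouse 4 on Western diet was high in Ndufa12l at 2.96, Uqcrh at 7.40, Cox4i1 at 7.51 and Cox7a2l at 3.98, and in the centred median of complex II at 0.29.

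Of the other mice, knockout mouse 4 on Western diet was high in Sdhb at 4.26 and Atp5a1 at 6.73, knockout mouse 1 on that diet was low in Atp5j at 5.49 and in the centred median of complex III at -0.76, and wild-type mouse 5 on normal diet was high in Cox6c at 6.65.

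The diet response differed between knockouts and wild types by the interaction test in 12 named members. The interaction was -1.12 for Ndufa10, -1.06 for Ndufaf1, -0.93 for Ndufs1, -1.15 for Sdha, -0.84 for Sdhb, -0.70 for Sdhc, -0.97 for Uqcrc2, -0.86 for Uqcrfs1, -3.90 for Cox6b2, -0.98 for Cox7a1, 1.5 for Cox6a2 and -0.67 for Atp5f1.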

How the results depend on the processing

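On Western diet, members lower in knockouts numbered 41 with quantile normalization and 43 with normexp and quantile, and members higher numbered 5 with both and with the deposited matrix. For diet in knockouts, 35 were lower under each of these 3, and 6, 5 and 5 were higher. In the interaction, 15 were lower with median scaling, 26 with normexp and quantile and 26 with the deposited matrix, and 2 were higher with quantile normalization. On normal diet, 2 were lower with median scaling, 9 with array weights and 8 with slide as a random block, and 2 were higher with normexp, the matrix or array weights. For diet in wild types, 3 were lower with array weights or a replicate block, 0 with median scaling, quantile, normexp, the matrix, no filter on dim probes, the mean over probes or each probe by itself, and 2 were higher with normexp, the matrix or either slide block. The cause of these shifts was not tested.

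Leaving out each mouse in turn gave 62 to 70 lower and 1 higher for genotype on Western diet, 3 to 7 and 1 to 2 on normal diet, 66 to 70 and 1 to 2 for diet in knockouts, 0 to 3 and 1 to 2 for diet in wild types, and 34 to 48 and 1 in the interaction. With a replicate block, 68, 7, 67, 3 and 41 members were lower in these 5 comparisons. In 2, 0, 2 and 4 of 5 pairs a mouse correlated best with its own number, the last for diet in wild types, where 4 of 5 pairs share a slide.

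Some named members changed sign. On Western diet, quantile normalization gave 0.01 for Cox4i1, 0.36 for Ndufa2, 0.26 for Ndufa7, 0.24 for Ndufb7, 0.01 for Uqcr, 0.11 for Uqcrh and 0.03 for Uqcrq. Normexp with quantile gave 0 for Cox4i1, 0.36 for Ndufa2, 0.27 for Ndufa7, 0.23 for Ndufb7, 0.01 for Uqcr and 0.09 for Uqcrh, and the matrix gave 0.33 for Ndufa2, 0.28 for Ndufa7, 0.23 for Ndufb7 and 0.07 for Uqcrh. Of these members, Ndufa2, Ndufa7 and Ndufb7 passed the test as higher in knockouts under each of these 3 settings. Sdhd for diet in knockouts was 0.02, 0.03 and 0.05 under these 3. The mean over probes gave 0.47 for Ndufs1 on Western diet and 0.68 in the interaction, and neither passed (limma adjusted p = 0.626 and 0.716). Calls held under all alternatives run in 38 of 68, 3 of 6, 30 of 70, 1 of 2 and 15 of 42 members called in the 5 comparisons. Saturation limits Cox6a1 on all arrays and Uqcrq and Atp5b on some, so that their levels there are lower bounds.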
